A study of Mus musculus with 2 samples.

Results

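The 10 genes described here encode the constant parts of mouse antibodies and the chain that joins them into polymers: Igkc, Iglc1, Iglc2, Iglc3, Ighm, Ighd, Igha, Ighg2b, Ighg2c and Jchain. They are 10 of the 32285 genes counted, and all 10 were found by symbol in both libraries. They were followed in every droplet with at least 200 detected genes and at most 10% mitochondrial UMIs (unique molecular identifiers, each standing for 1 captured RNA molecule), which kept 3364 of 3642 barcodes in the vehicle library and 4370 of 4693 in the Momordicine-I library. Droplets were then split by their UMIs of Cd79a, the signalling partner of the B cell receptor, into 0, 1 and 2 or more, and by cell class. The genes were picked with their counts in these libraries known, so their values are a description of these libraries.

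The cells came from tumours of MOC2, a mouse oral carcinoma line, grown under the skin of female C57BL/6 mice that were 6 to 7 weeks old at injection. From the time tumours could be felt, 1 group received the vehicle, DMSO in a Captisol solution, and the other Momordicine-I, a triterpenoid of bitter melon, dissolved in it and given into the peritoneum at 30 mg/kg each day. Tumours of 3 of the 10 mice in a group were pooled and sorted for CD45, the surface protein of blood-derived cells, before droplet capture with a 10x Genomics kit that reads the 3′ end of each RNA. Each group is thus 1 library with no replicate and no way to tell its mice apart, so no test was run. Every interval below is at 95% and covers counting error only, and since UMIs of 1 cell are not independent it is narrower than the true error. In a pooled library, fewer cells of a type in the tumours and less RNA per cell or fewer cells captured cannot be told apart in a summed level.

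An antibody is built from paired heavy and light chains. In mice the light chain is either kappa, with the constant gene Igkc, or lambda, with Iglc1, Iglc2 or Iglc3, and a mature naive B cell makes its heavy chain with Ighm and Ighd for surface IgM and IgD. Class switching replaces these with Ighg2b, Ighg2c or Igha. A B cell that becomes a plasma cell gives over much of its RNA to secreted antibody, with Jchain linking the units of IgM and IgA polymers.

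By the GENCODE annotation of GRCm38 (mm10), 9 of the 10 are immunoglobulin constant genes and Jchain is protein coding. Igkc is a single exon on chromosome 6 (chr6:70726435-70726966, plus strand). The lambda genes lie on the minus strand of chromosome 16, Iglc1 at chr16:19061618-19062071, Iglc3 at chr16:19065230-19065681 and Iglc2 at chr16:19198396-19200351. The heavy chain genes lie on the minus strand of chromosome 12, Ighm at chr12:113418558-113422730, Ighd at chr12:113406604-113416324, Ighg2b at chr12:113302965-113307933, Ighg2c at chr12:113285325-113288932 and Igha at chr12:113254830-113260236. Jchain lies on chromosome 5 (chr5:88519809-88527891, minus strand). Light chain sequences are shown because, outside B cells, Igkc was higher in the vehicle library and Iglc2 with Momordicine-I, and Iglc3 is near-identical to Iglc2. These are the last 300 bases of each GENCODE coding sequence, 5′ to 3′, and capitals in Iglc3 mark the 11 bases that differ from Iglc2.
Igkc: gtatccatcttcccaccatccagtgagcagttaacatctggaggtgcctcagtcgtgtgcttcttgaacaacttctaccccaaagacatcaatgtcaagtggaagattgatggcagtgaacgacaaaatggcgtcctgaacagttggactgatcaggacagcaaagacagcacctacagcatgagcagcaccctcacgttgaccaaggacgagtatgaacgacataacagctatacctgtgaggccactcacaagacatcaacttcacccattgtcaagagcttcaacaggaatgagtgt
Iglc2: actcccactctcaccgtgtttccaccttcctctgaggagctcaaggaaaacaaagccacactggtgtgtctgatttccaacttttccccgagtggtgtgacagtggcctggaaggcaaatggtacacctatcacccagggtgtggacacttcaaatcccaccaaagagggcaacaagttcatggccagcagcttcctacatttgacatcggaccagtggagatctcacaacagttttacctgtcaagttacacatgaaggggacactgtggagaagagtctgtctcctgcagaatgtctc
Iglc3: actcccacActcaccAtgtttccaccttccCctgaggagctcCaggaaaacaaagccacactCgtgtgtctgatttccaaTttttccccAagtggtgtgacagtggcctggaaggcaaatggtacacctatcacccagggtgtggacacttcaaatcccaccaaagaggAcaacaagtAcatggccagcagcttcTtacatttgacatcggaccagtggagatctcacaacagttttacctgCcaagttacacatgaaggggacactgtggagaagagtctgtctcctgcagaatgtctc
Iglc2 and Iglc3 were identical at 303 of 314 aligned bases (96.5%), and the last 57 coding bases of Iglc3 hold no difference. Reads that fall in the shared coding bases could be shared or dropped between this pair. Bases beyond the coding sequence, where reads of a 3′ kit can also fall, were not compared, so the separate levels of the pair are uncertain. Igkc and Iglc2 were identical at 57.9% of 302 aligned bases, and Ighg2b and Ighg2c at 87.8% of 1211.

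Passing droplets held 33179710 UMIs (vehicle) and 40284090 UMIs (Momordicine-I), at a median depth of 5760 and 5002 per droplet. Ptprc, which encodes CD45, had a UMI in 89.0% and 86.5% of them, and in 21.5% and 18.9% of tumour-like droplets, a class that a CD45 sort should remove. The libraries shared 10 barcode sequences, whose passing droplets held 19 and 30 UMIs of the 10 genes. Scrublet, a doublet caller, marked 2 and 1 droplets on its own threshold, too few to be a working call, so no droplet was removed as a doublet. Unnamed clusters held 6.01% of vehicle and 9.86% of Momordicine-I droplets.

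The 10 genes made up 182992 UMIs, or 0.551% of all UMIs, in the vehicle library, against 7536 UMIs, or 0.0187%, with Momordicine-I. Most of the vehicle UMIs lay in 7 droplets. In 7 vehicle droplets and in 0 Momordicine-I droplets, at least 10% of all UMIs came from the 10 genes, and these are called antibody-high here (the limit was set after the data were seen). They held 88.7% of the vehicle UMIs of Igkc, 86.7% of Ighm, 97.6% of Jchain and 96.2% of Ighg2b. The nearest droplets below the limit were at 6.82% (vehicle) and 3.07% (Momordicine-I), and the lowest above it was at 15.6%. A share of 0 among 4370 droplets allows up to 0.0844% (exact Clopper-Pearson interval), counting error only.

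**Figure D1:**
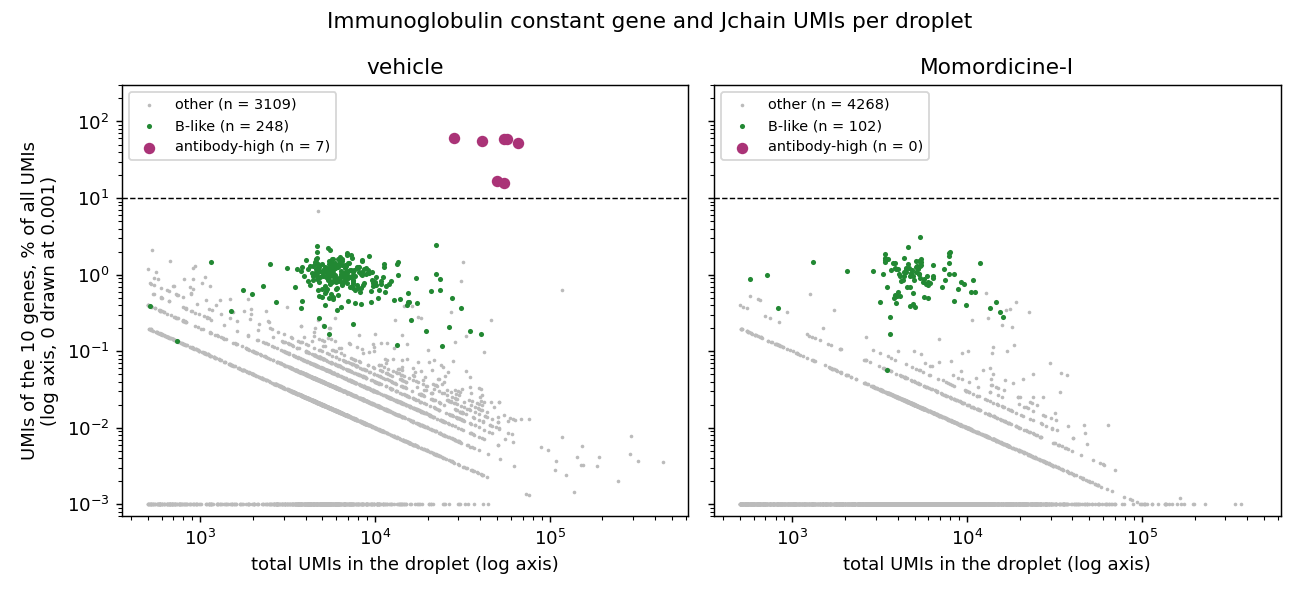
Each point is 1 passing droplet, with its total UMIs on the x axis and the percentage of them from the 10 genes on the y axis (both log axes, 0 drawn at 0.001), for the vehicle and the Momordicine-I library. The 7 antibody-high droplets lie above the dashed line at 10% in the vehicle library, and no Momordicine-I droplet does.

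The antibody-high droplets carried the RNA of antibody-secreting cells. In 5 of them the 10 genes made up 52.29 to 60.04% of 28256 to 65512 UMIs. Igkc had 9210, 17958, 15953, 12438 and 19647 UMIs in these 5, Ighm 6568, 12919, 14916, 10190 and 11476, and Jchain 995, 1572, 1828, 292 and 3057, so by constant genes all 5 were mainly IgM and kappa. Mzb1, a chaperone of antibody secretion, had 19 to 120 UMIs in them and Xbp1, a transcription factor of plasma cells, 26 to 102. Xbp1 sets them apart little from neutrophil-like droplets: per 1000000 UMIs it had 1455 in the 7 antibody-high droplets and 873 in the other vehicle neutrophil-like droplets. Mzb1 had 1660 and 0.930. In vehicle B-like cells Xbp1 had 135 and Mzb1 162, and in vehicle plasmacytoid dendritic-like cells 236 and 246. Each of the 5 had 7 or 8 of 8 plasma cell markers, 0 UMIs of the B cell gene Ms4a1, 7 to 16 of Cd79a and 1 to 7 of the neutrophil gene S100a8. Of these markers, Xbp1 and Prdm1 also had a UMI in 70.3% and 18.8% of vehicle droplets with 0 Cd79a UMIs. Clustering, which left out immunoglobulin genes, had placed these 5 in a neutrophil-like cluster of shallow droplets, whose median was 1742 UMIs.

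The other antibody-high droplets had lower shares. A droplet in a T-like cluster led by proliferation genes had 16.9% of 50143 UMIs from the 10 genes, with 4415 of Igkc, 3466 of Ighm, 223 of Mzb1 and 0 of Cd3e, which encodes a T cell receptor subunit. A droplet in the dendritic-like cluster had 15.6% of 54548 UMIs, with 5167 of Igkc, 3083 of Ighg2b and 2 of Ighm, and it alone held 96.1% of the library's 3207 Ighg2b UMIs. It had 1 UMI of Cd79a, so the split by Cd79a put it in the stratum with 1. The droplet with most Igkc and Jchain had Igkv14-126 and Ighv11-2 as its leading kappa and heavy variable segments, with 119 and 35 UMIs, and the lambda segment Iglv1 with 188. The one with most Ighm had Igkv1-117, Ighv1-76 and Iglv1, with 178, 50 and 55. The Ighg2b droplet had Igkv9-124, Ighv1-69 and Iglv1, with 23, 13 and 10. All 7 were among the 91 vehicle droplets with the highest Scrublet scores, so a filter on those scores takes them out.

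Most of the difference in Igkc and Ighm RNA among droplets with Cd79a lay in these few droplets. In droplets with 2 or more Cd79a UMIs (256 and 97), Igkc stood at 35656 CPM (UMIs per 1000000 UMIs of the summed droplets) in the vehicle library against 3642 with Momordicine-I. The ratio, Momordicine-I over vehicle as in all that follow, was 0.102 (0.0979 to 0.107). Without the 6 antibody-high droplets among them, it stood at 3314 against 3642 CPM and the ratio was 1.10 (1.05 to 1.15). Ighm went from a ratio of 0.109 (0.104 to 0.114) to 1.09 (1.03 to 1.15), at 2683 and 2925 CPM. Between the libraries, the CPM of Igkc and that of Ighm were thus each within 1.5-fold in these remaining droplets, most of which were B-like. Per droplet the order was the other way. Igkc averaged 28.3 UMIs (vehicle) and 23.3 (Momordicine-I), and Ighm 22.9 and 18.7, at median depths of 6408 and 5117 UMIs. Among the 8402 genes measured with at least 20 UMIs over both libraries, 13.5% were lower by 1.5-fold or more and 12.9% higher. Of the 8 antibody genes measured, 5 were lower (Igkc, Iglc1, Ighm, Igha and Jchain) and 0 higher. The genes were chosen on these contrasts, so nothing is read from the counts. Without the antibody-high droplets these shares were 14.6% and 10.2% of 8199 genes, and of the 7 antibody genes measured 1 was lower (Igha) and 0 higher.

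Without the antibody-high droplets the other B cell light and heavy chain genes also lay close in this stratum. Iglc1 stood at 257 and 219 CPM, Iglc2 at 930.0 and 745 CPM, Iglc3 at 371 and 395 CPM and Ighd at 938 and 859 CPM, with ratios of 0.854, 0.801, 1.06 and 0.915. The genes of switched and secreted antibody were rare: Jchain had 17 and 1 UMIs (vehicle and Momordicine-I), Igha 25 and 0, Ighg2b 10 and 0, and Ighg2c 8 and 0. A single vehicle B-like cell held 20 of the Igha UMIs. For Ighg2b and Ighg2c a difference was not detectable at this depth.

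Droplets with 0 Cd79a UMIs showed a different picture. Igkc had 3576 UMIs in 1578 of 3042 vehicle droplets (51.9%, 50.1 to 53.7%) and 183 UMIs in 109 of 4253 Momordicine-I droplets (2.56%, 2.11 to 3.08%). That is 121 against 4.64 CPM, a ratio of 0.0384 (0.0329 to 0.0446). A single vehicle droplet of 117493 UMIs held 646 of the 3576, and the log2 ratio was -4.53 without the top droplet of each library. Thinned to 2000 UMIs each, by expectation, 20.5% and 0.823% of droplets would keep a UMI. The median depths were 5610 and 4991 UMIs, so the vehicle droplets were slightly deeper. None of these droplets was antibody-high.

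Ighm was lower too, but less so than Igkc, with 3310 UMIs in 51.5% and 1283 in 14.4% of droplets, 112 against 32.5 CPM (ratio 0.291, 0.272 to 0.310). Iglc2, a lambda light chain, stood in the opposite order. It had 42 UMIs in 39 vehicle droplets (1.28%, 0.913 to 1.75%) and 287 in 223 Momordicine-I droplets (5.24%, 4.59 to 5.96%), 1.42 against 7.27 CPM, a ratio of 5.13 (3.70 to 7.27). Thinned, the Iglc2 shares were 0.357% and 1.80%. Outside B cells Igkc was thus the higher in the vehicle library and Iglc2 the higher with Momordicine-I.

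The remaining genes were rarer in droplets without Cd79a. Ighd, the IgD heavy chain, had 87 and 30 UMIs (ratio 0.259, 0.165 to 0.396), Iglc1 27 and 5 (0.139, 0.0418 to 0.366) and Jchain 185 and 49 (0.199, 0.142 to 0.274). Ighg2b, an IgG heavy chain, had 109 UMIs in 105 vehicle droplets and 0 with Momordicine-I, 48.4-fold lower against a floor of 3 UMIs over the library. Ighg2c, another IgG heavy chain, had 248 UMIs, 72 of them in 1 droplet, and 0. That is 110.2-fold lower against the same floor, with this droplet included. Neither fold carries the counting error of the vehicle UMIs. Igha had 11 and 8 UMIs (ratio 0.546, 0.191 to 1.49), an interval that spans no difference. Iglc3 had 55 and 145 UMIs (1.98, 1.44 to 2.75), and 133 of all Momordicine-I Iglc3 UMIs lay in 13 plasmacytoid dendritic-like (pDC-like) cells. Without droplets holding a UMI of any of 5 B cell genes, its log2 ratio was -0.11 in place of 0.98.

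Of the 14799 genes measured with 0 Cd79a UMIs, 6.44% were lower and 6.94% were higher by 1.5-fold or more in the Momordicine-I library. Of the 9 antibody genes measured, 7 were lower (Igkc, Iglc1, Ighm, Ighd, Ighg2b, Ighg2c and Jchain) and 2 higher (Iglc2 and Iglc3), with a median log2 ratio of -2.33 against 0.03 over all genes. The genes were chosen on this contrast, so here too nothing is read from the count.

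**Figure D2:**
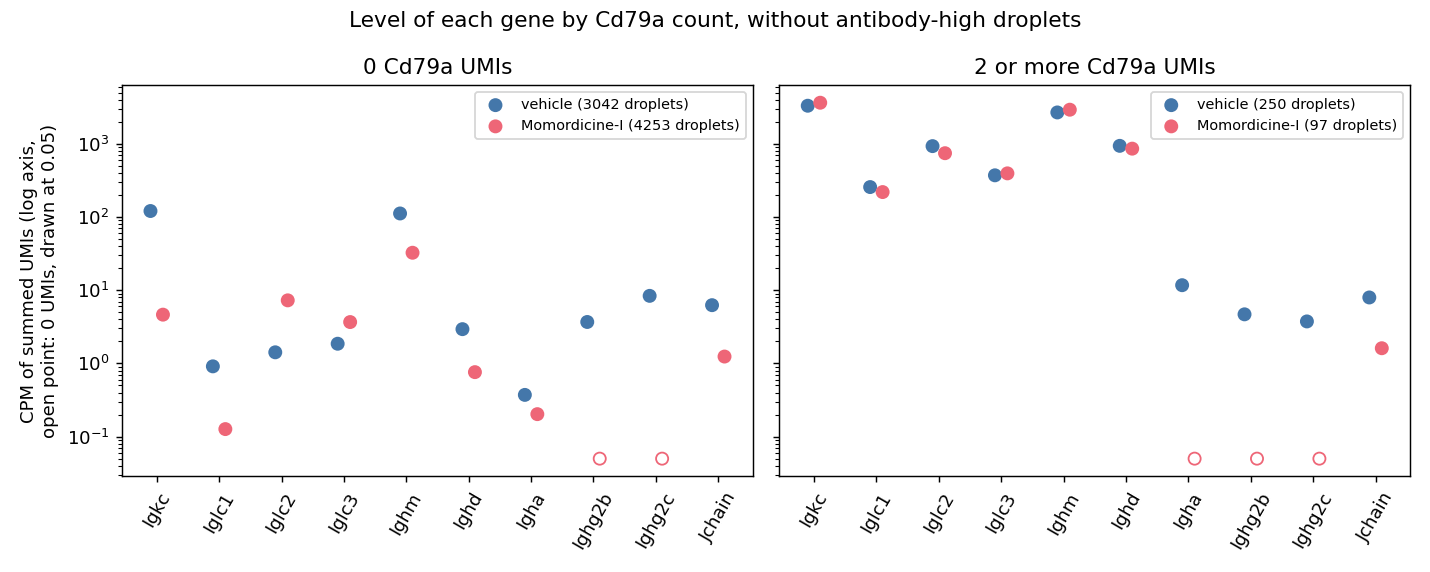
CPM of each gene (log axis) in droplets with 0 Cd79a UMIs and with 2 or more, without the antibody-high droplets, by library; open points had 0 UMIs and are drawn at 0.05. The points of Igkc lie close together with 2 or more Cd79a UMIs (3314 and 3642 CPM) and far apart with 0 (121 and 4.64 CPM), and those of Iglc2 are in opposite order in the 2 panels.

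The split itself lies in a gap. Droplets with 1 Cd79a UMI numbered 66 and 20 (vehicle and Momordicine-I), of which 2 and 4 were B-like, and Igkc had a UMI in 69.7% and 20% of them. With exactly 2 Cd79a UMIs there were 8 and 5 droplets, of which 7 and 4 were B-like, with Igkc in 100% and 80%. In droplets with 1, Igkc had 5267 and 34 UMIs, but 5167 of the vehicle UMIs came from the Ighg2b droplet. Without it the counts were 100 and 34, or 92.5 and 181 CPM, but 24 of the 34 lay in 1 Momordicine-I droplet, so no order is read there.

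By cell class, the vehicle library had Igkc outside B-like cells at like shares once depth was matched. Without antibody-high droplets, Igkc had a UMI in 49.4% of 1970 neutrophil-like, 51.4% of 290 T-like, 71.6% of 109 NK-like, 66.2% of 68 ILC2-like (group 2 innate lymphoid), 71.0% of 107 dendritic-like and 69.9% of 146 monocyte/macrophage-like droplets. Median depths ran from 4996 UMIs in neutrophil-like to 28736 in dendritic-like droplets. Thinned to 2000 UMIs the shares were 21.8, 20.1, 17.1, 21.3, 13.8 and 18.3%, against 93.0% in B-like cells. None of these classes is known to make light chains. The thinned Igkc shares of the other 5 lay at or below that of neutrophil-like droplets, and whether any class expressed Igkc was not tested. The source of this RNA was not tested.

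In the Momordicine-I library the same classes had Igkc in 1.75% of 2631 neutrophil-like, 2.82% of 177 T-like, 4.03% of 149 NK-like, 2.08% of 48 ILC2-like, 3.31% of 181 dendritic-like and 4.24% of 283 monocyte/macrophage-like droplets, and 0.336 to 0.874% thinned. B-like cells had it in 93.1%. In the neutrophil-like class Igkc stood at 124 against 3.27 CPM, and the ratio was 0.0263 (0.0193 to 0.0349), or -5.25 on the log2 scale. With the 5 antibody-high droplets that clustering put there, the log2 ratio was -10.80. The vehicle share was the higher in each of the 8 classes other than B-like in the plot of shares by class, with intervals that do not overlap.

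Iglc2 had the opposite order in most classes. It had a UMI in 5.13% of Momordicine-I and 1.02% of vehicle neutrophil-like droplets (ratio of CPM 5.12, 3.31 to 8.26), in 5.37% and 1.83% of NK-like, 10.4% and 0% of ILC2-like and 4.95% and 2.74% of monocyte/macrophage-like droplets. In T-like droplets the shares were 4.52% and 1.03%, but the CPM stood in the opposite order (4.67 and 53.2), with 150 of 152 vehicle UMIs in 1 droplet, so no order is read there. Outside neutrophil-like droplets these classes had 0 to 18 Iglc2 UMIs a library, T-like droplets aside, and the intervals of the ratio spanned 1 in NK-like, dendritic-like and monocyte/macrophage-like droplets.

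**Figure D3:**
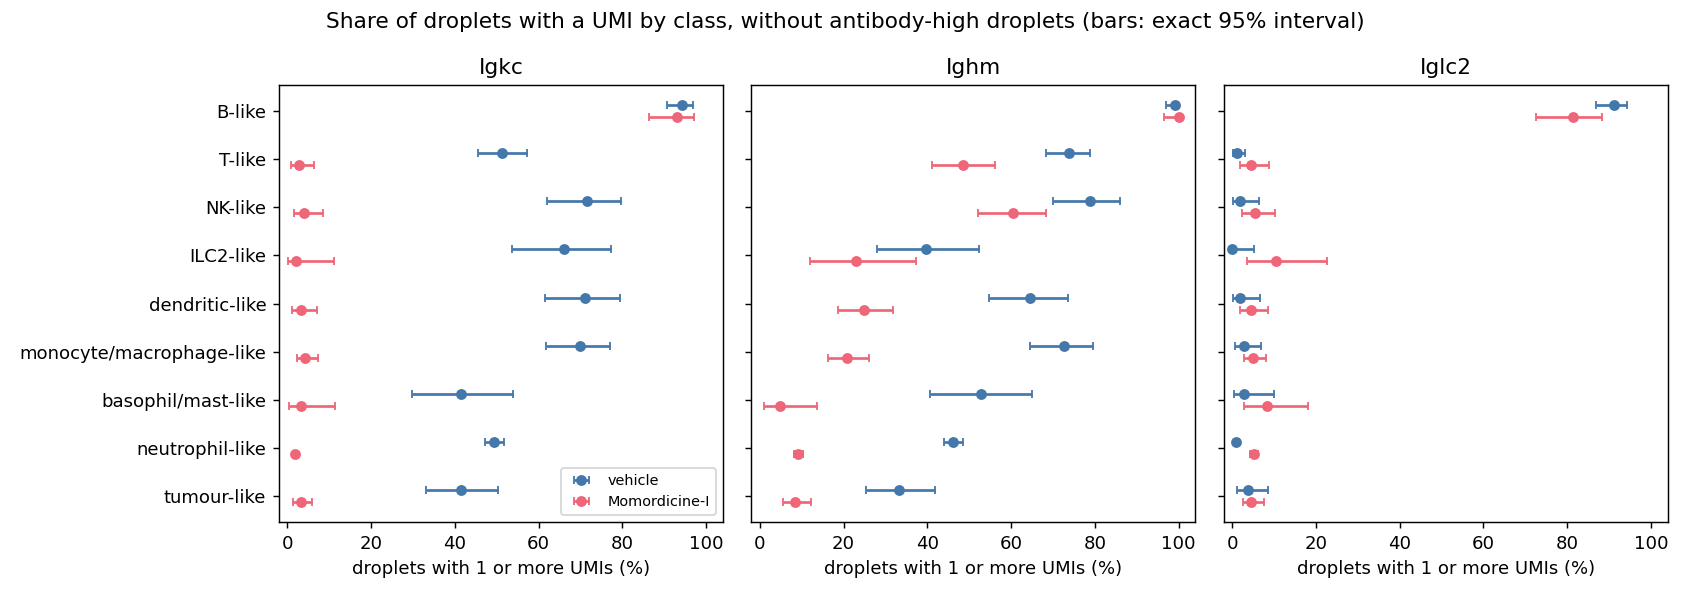
Share of droplets with at least 1 UMI (x axis, percent, bars are exact Clopper-Pearson 95% intervals) of Igkc, Ighm and Iglc2 in 9 cell classes (y axis) of the vehicle and Momordicine-I libraries, without antibody-high droplets. Igkc lies at 49.4% against 1.75% in neutrophil-like droplets, while in B-like cells the points nearly coincide at 94.4% and 93.1%.

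The mix of antibody genes outside B-like and pDC-like cells also differed from that inside B-like cells. In vehicle neutrophil-like droplets Igkc made up 96.9% (95.9 to 97.7%) of the UMIs of the 4 light chain genes, between 69.9% (69.0 to 70.8%) in B-like cells and 98.7% in the antibody-high droplets. Per 100 Igkc UMIs these 3 sets had 6.36, 0.218 and 9.82 of Jchain, 3.43, 28.5 and 0.00118 of Ighd, 1.495, 25.3 and 0.197 of Iglc2, and 89.7, 76.3 and 70.2 of Ighm. For Jchain, Ighd and Iglc2 the neutrophil-like value thus lay between that of B-like cells and that of the antibody-high droplets, nearer to the latter. Other genes did not: Ighm was above both, and so was Ighg2b, at 3.99 against 0.160 and 3.64. Ighg2c had 103 UMIs in neutrophil-like droplets, against 8 in B-like cells and 62 in the antibody-high droplets. The antibody-high values of Ighg2b and Ighg2c rest on 1 droplet, which held 3083 of the 3084 Ighg2b UMIs and all 62 of Ighg2c.

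The Momordicine-I library had another mix. In its neutrophil-like droplets Igkc made up 24.5% (18.7 to 31.1%) of light chain UMIs, with 49 of Igkc, 143 of Iglc2, 4 of Iglc1 and 4 of Iglc3, against 73.3% in its B-like cells. The 456 Iglc2 and 240 Iglc3 UMIs of its B-like cells stand in another proportion than the 143 and 4 of its neutrophil-like droplets. Per 100 Igkc UMIs there were 659 of Ighm and 69.4 of Jchain in these droplets, and 80.0 and 0.0441 in B-like cells. In neither library did neutrophil-like droplets hold these genes in the proportions of B-like cells.

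In neutrophil-like droplets, the count of Igkc varied less with depth than that of S100a8, a neutrophil marker. Vehicle Igkc averaged 0.715 UMIs per droplet (exact Poisson interval 0.597 to 0.850) in 179 droplets under 1000 UMIs, and 0.664, 0.587 and 0.651 in the bins from 1000, 2000 and 4000 UMIs. From 8000 UMIs it averaged 1.08 and from 16000 UMIs 2.06. Over the same 6 bins S100a8 went from 3.41 to 942 UMIs per droplet. The intervals of Igkc overlapped in the first 4 bins, up to 8000 UMIs, where S100a8 was higher from bin to bin. The CPM of Igkc was 1018 in the first bin, 119 in the fourth and 89.9 in the last.

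Ighm had the same shape in the vehicle library, with 0.698, 0.692, 0.542, 0.628, 0.878 and 1.59 UMIs per droplet over the bins. In the Momordicine-I library Iglc2 averaged 0.0585, 0.0446, 0.0397, 0.0508, 0.0846 and 0.0762, on 7 to 55 UMIs per bin. Single vehicle droplets mostly held few Igkc UMIs: 996 of 1970 had 0, 628 had 1, 211 had 2 and 135 had 3 or more, the highest 70. The variance was 4.33 times the mean for Igkc, 1.96 for Ighm and 1.05 for Jchain, where droplets that draw at random at 1 common rate would give 1. These droplets differed in depth, and the droplet with 70 UMIs weighs heavily in the Igkc value, so no clumping is read from it.

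**Figure D4:**
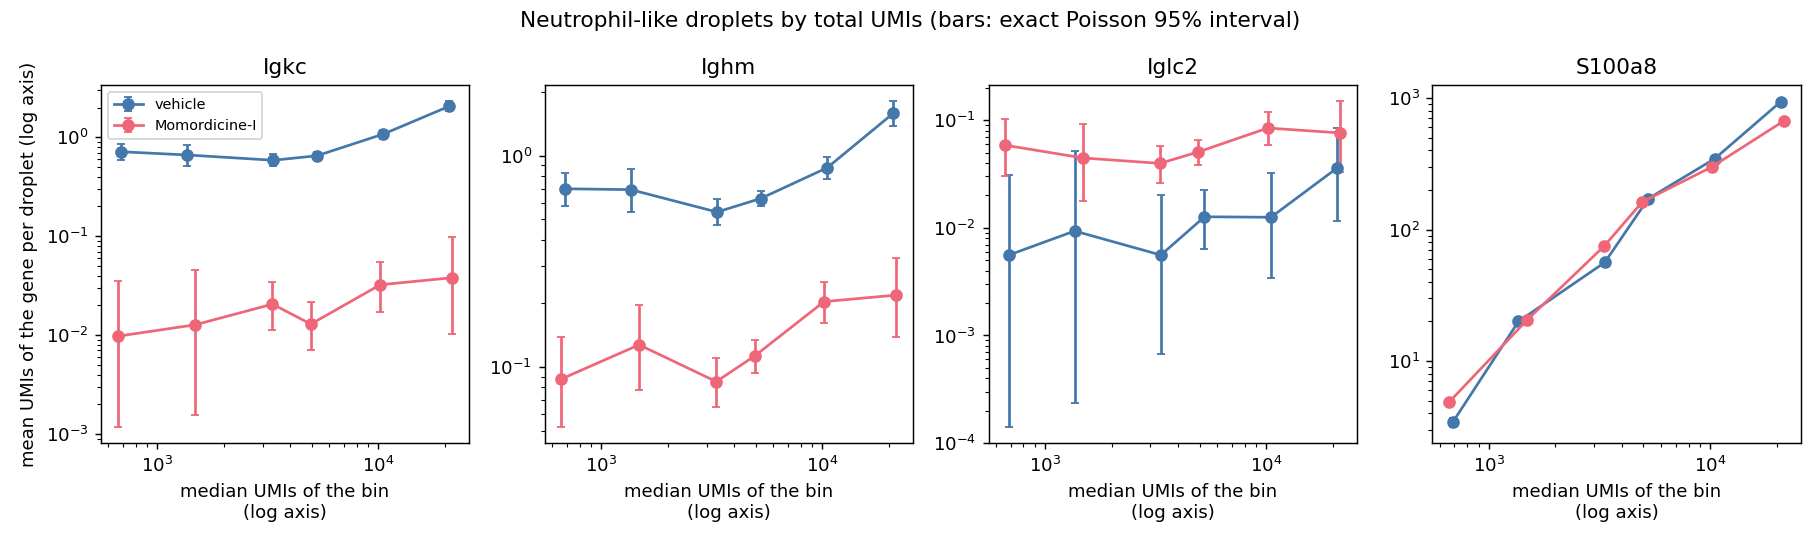
Mean UMIs per neutrophil-like droplet (y axis, log) of Igkc, Ighm, Iglc2 and S100a8 against the median total UMIs of 6 depth bins (x axis, log), by library, without antibody-high droplets; bars are exact Poisson 95% intervals. Vehicle Igkc stays between 0.587 and 0.715 in the first 4 bins, while S100a8 increases in each bin.

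Ighm differed from Igkc in T-like and NK-like cells. In the Momordicine-I library, where neutrophil-like droplets had Ighm in 9.24% (3.81% thinned), NK-like cells had it in 60.4% (18.4% thinned) and T-like cells in 48.6% (24.0% thinned). Among T-like clusters it was found in 39 of 61 cells (63.9%) of the one led by Tcf7 and Lef1, genes of naive T cells, and in 41 of 98 (41.8%) of the one led by Foxp3, the regulatory T cell factor. It was found in 17 of 192 (8.85%) of an unnamed cluster led by the cytokine gene Il17a. Igkc had a UMI in 1, 2 and 6 droplets of these 3 clusters, so Ighm was mostly found there without kappa light chain.

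In the vehicle library the thinned Ighm share was likewise higher in T-like (36.8%) and NK-like (27.1%) than in neutrophil-like droplets (19.95%). ILC2-like cells were not higher in the vehicle library (13.6% thinned), and stood at 4.78% with Momordicine-I. The log2 ratio of Ighm between the libraries was -0.46 in the Tcf7 and Lef1 cluster, -0.47 in the Foxp3 cluster and -0.72 in NK-like cells, against -2.37 in neutrophil-like droplets. Unrearranged, or sterile, transcripts of the Ighm region have long been known in T cells. A 3′ kit cannot tell these from transcripts of a complete heavy chain, and which of them was counted was not tested.

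Plasmacytoid dendritic-like cells, the producers of type I interferon, had Ighm in all 6 vehicle and all 13 Momordicine-I cells, with 38.7 and 17.5 UMIs per cell. Iglc3 was found in 6 of 6 and 10 of 13, at 493 and 682 CPM, beside 396 and 419 CPM in B-like cells. Igkc had 7 and 38 UMIs there, and Jchain 0 in both. A single vehicle cell held all 76 Iglc2, 68 Iglc1 and 26 Cd79a UMIs of the vehicle pDC-like cells. The vehicle cell with most Ighm held 93 of the 232 Ighm UMIs. With Momordicine-I, Iglc2 had 50 UMIs in 5 of the 13 cells, and Cd79a had 0 in the class. These are values of 6 and 13 cells, against 13 and 4 Iglc3 UMIs in all of the 1970 and 2631 neutrophil-like droplets.

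B-like cells, led by Cd79a, Ebf1, Ms4a1 and Cd79b, numbered 248 and 102, and the 10 genes made up a median of 0.951% and 0.968% of their UMIs. S100a8, a neutrophil gene, had a UMI in 64.9% and 58.8% of them. They were largely unswitched. Ighm and Ighd were both found in 238 of 248 vehicle cells (96.0%) and 93 of 102 Momordicine-I cells (91.2%), with medians of 19 and 17 UMIs of Ighm and 7 and 4 of Ighd per cell. At least 2 UMIs of switched heavy chain genes (Igha, Ighg1, Ighg2b, Ighg2c and Ighg3) were in 3 and 0 cells, and in none of these 3 did they exceed Ighm.

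Kappa cells outnumbered lambda cells in both libraries. Of 231 and 86 B-like cells with at least 10 light chain UMIs, 90 (39.0%, 32.6 to 45.6%) and 43 (50%, 39.0 to 61.0%) had at least 80% Igkc, and 11 (4.76%, 2.40 to 8.36%) and 5 (5.81%, 1.92 to 13.1%) had at most 20%. The remaining 130 and 38 lay between, with median Igkc shares over all these cells of 74.1% and 78.9%. Cells on the kappa side still carried Iglc2 and Iglc3. In the 90 and 43 cells with at least 80% Igkc, the medians were 31 and 24 UMIs of Igkc, 2 of Iglc2 and 1 of Iglc3 in both libraries, and 0 of Iglc1. The 11 vehicle cells on the lambda side had medians of 9 of Iglc1, 11 of Iglc2 and 2 of Iglc3, and the 5 Momordicine-I cells 0, 12 and 1.

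**Figure D5:**
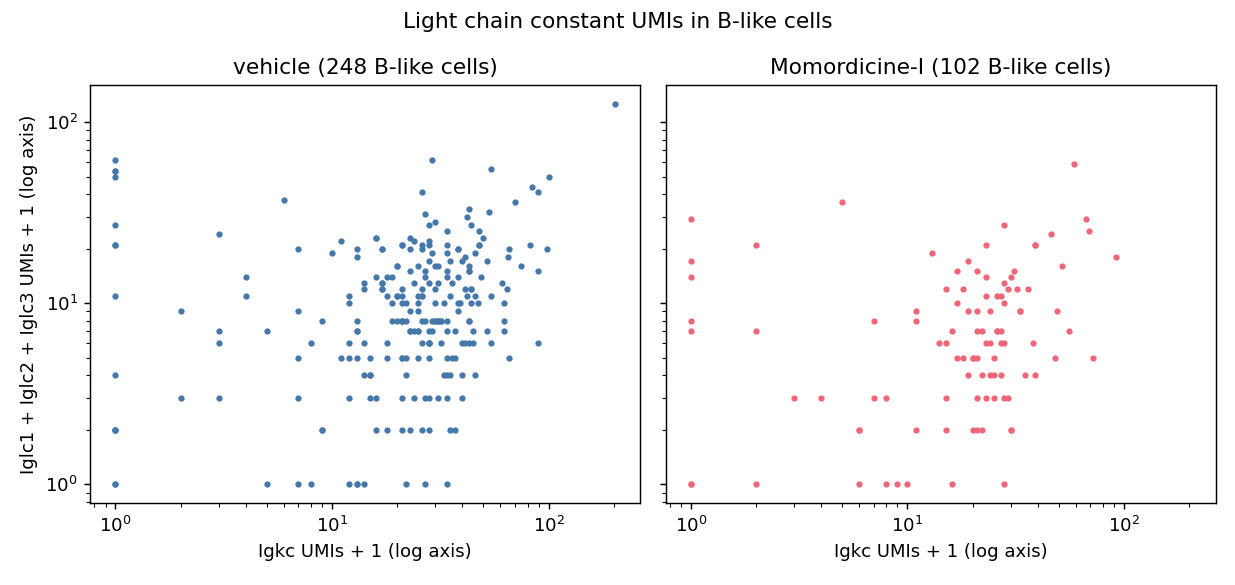
Summed UMIs of Iglc1, Iglc2 and Iglc3 against UMIs of Igkc (both plus 1, log axes) in each B-like cell of the vehicle (248) and Momordicine-I (102) libraries. Most cells lie to the right with 10 or more Igkc UMIs, and few have lambda UMIs with little or no Igkc.

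Genes that work with antibodies were read from 4 lists. Of 13 B cell receptor and identity genes, 13 were measured with 2 or more Cd79a UMIs, without antibody-high droplets, and 1 was lower and 0 were higher by 1.5-fold (median log2 ratio -0.19, against -0.01 over all genes, of which 14.6% were lower and 10.2% higher). The 1 was Cr2, a complement receptor of B cells, at -0.59. With 0 Cd79a UMIs, 7 of 10 measured were lower and 1 was higher (median -1.39, against 0.03 over all genes, of which 6.44% were lower and 6.94% higher). Among the lower were Pax5, a transcription factor of B cell identity (26 and 7 UMIs, ratio 0.202), and Ms4a1, which encodes CD20 (25 and 9 UMIs, 0.270), and the higher was the kinase Blk (106 and 401 UMIs, 2.84). Only 4 B-like cells in each library had 0 Cd79a UMIs. B-like cells made up 7.37% of vehicle and 2.33% of Momordicine-I droplets, and the part of this in the levels outside B cells was not tested.

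Of 15 plasma cell and antibody secretion genes, 10 of 13 measured were lower with 2 or more Cd79a UMIs when the antibody-high droplets were included (median -1.56, beside 13.5% of all genes lower), and 1 of 9 without them (median -0.34, beside 14.6%). With 0 Cd79a UMIs, 2 of 12 were lower and 1 was higher (median -0.03, beside 6.44% and 6.94% of all genes). The lower were Mzb1 (33 and 24 UMIs, ratio 0.546) and Pou2af1, a B cell transcription co-activator (37 and 14, 0.284), and the higher was Fkbp11, a secretory pathway protein (112 and 261, 1.75). Receptors that bind or carry immunoglobulin had 0 of 8 measured genes lower or higher with 0 Cd79a UMIs (median -0.07). With 2 or more Cd79a UMIs, without antibody-high droplets, 4 of 7 were lower and 0 higher (median -0.60, beside 14.6% and 10.2% of all genes). The 4 were Fcgr3 and Fcgr4, with a UMI in 20.4% and 12.4% of these vehicle droplets, and Fcgrt and Trim21, with 3 and 2 Momordicine-I UMIs. Fcgr2b and Pigr had ratios of 1.32 (0.985 to 1.74) and 1.305 (0.588 to 2.69), intervals that span no difference. Of 4 other constant genes (Ighg1, Ighg3, Ighe and Iglc4), 0 had 20 UMIs in either stratum.

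The genes whose levels over the cell classes were most like those of Igkc came mostly from the plasma cell list (Mzb1 and Pou2af1) and the B cell list (Ms4a1 and Cd79a). Gm30211 is in neither. Over 22 pools, each a named class in 1 library, the highest Pearson correlations of log2(CPM + 1) with Igkc among genes that are no immunoglobulin segments were those of Mzb1 and Pou2af1 (both 0.746), Gm30211 (0.669), Ms4a1 (0.654) and Cd79a (0.653), and Ighm stood at 0.826 and Iglc2 at 0.491. Pools of a library share its depth and preparation, and the antibody-high droplets were included, so these values are a description.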

How the data were processed

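Each library was deposited as a matrix of raw UMI counts per gene and barcode. Per the submitters' processing notes the authors used Cell Ranger 6.0.2 and mm10, and per the labels' protocols a 10x Genomics 3′ v3.1 kit. The values are whole numbers and no further normalization was found in the deposited files. Barcodes with under 200 genes or over 10% mitochondrial UMIs were removed here. UMIs were summed per library and stratum and given as CPM, with exact conditional binomial intervals for ratios, exact Clopper-Pearson intervals for shares and exact Poisson intervals for means. A gene counted as measured with 20 UMIs in both libraries together, and as lower or higher past 1.5-fold. A library at 0 was set to a floor of 3 UMIs over the group. Thinned shares are the expected share of droplets that keep a UMI at 2000 UMIs, over droplets of at least that depth. Cells were clustered with scanpy 1.11.5 (Python 3.11.15, scipy 1.17.1) on 2000 variable genes, leaving out Cd79a and all antibody and T cell receptor segments, with 30 principal components, 15 neighbours and Leiden resolution 1. The 26 clusters were named from 15 marker lists, and limits on the mean log2 fold of a list (2, and 3 for neutrophil markers in other clusters) were set after seeing the data. The names are rebuilt here and may differ from those of the study. Doublets were scored with Scrublet and not removed. All 10 genes are described, other genes come from 4 lists or the marker lists, variable segments are the leading ones of the droplets with most UMIs of a gene, and members and lists were chosen with earlier results of these data known. The counting and interval code was tested on simulated data. Alternatives were other filters, doublet removal, other denominators, other clusterings and leaving out the top cell or, added after seeing the data, the antibody-high droplets.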

Additional observations from a re-analysis of the deposited data

Results flagged for a closer look

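For 3 genes the CPM ratio between the libraries pointed one way in droplets with 0 Cd79a UMIs and the other way in those with 2 or more. This was without antibody-high droplets and with both intervals away from no difference. For Igkc and Ighm the order with 2 or more holds for CPM only. Per droplet, Igkc averaged 28.3 UMIs (vehicle) and 23.3 (Momordicine-I) there, and Ighm 22.9 and 18.7. The log2 ratio with 0 Cd79a UMIs minus that with 2 or more was -4.84 for Igkc (-4.70 and 0.14), 2.68 for Iglc2 (2.36 and -0.32) and -1.91 for Ighm (-1.78 and 0.12). With 1 library per group this difference was not tested, and in droplets with 2 or more Cd79a UMIs each of the 3 ratios was under 1.5-fold.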

How the results depend on the processing

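The log2 ratio of Igkc with 0 Cd79a UMIs was -4.70 and lay between -5.04 (droplets with 0 UMIs of 5 B cell genes) and -4.53 over its alternatives. With 2 or more Cd79a UMIs it was -3.29, and was -4.42 at 5% mitochondrial UMIs, -3.00 without the top cell, -1.28 as the mean of cells' CPM and -3.38 without immunoglobulin UMIs in the total. It was 0.24 with the highest doublet scores removed and 0.14 without antibody-high droplets, the opposite direction; for Ighm these were 0.20 and 0.12. Of the antibody genes, 5 were lower there and 1 without antibody-high droplets, beside 13.5% and 14.6% of all genes measured. They numbered 1 with doublets removed and 3 by mean CPM. No share over all genes is given for these 2 settings, so nothing is read from their counts. In neutrophil-like droplets the Igkc ratio was -10.80, and -5.33 with no mitochondrial limit, -5.24 with doublets removed, -8.17 by mean CPM, -5.25 without antibody-high droplets, -5.25 at Leiden resolution 2 and -3.94 with cells classed by their own markers. The share of vehicle Igkc UMIs in droplets with 0 Cd79a UMIs was 3.74%, and 3.51% at 5% mitochondrial UMIs, 4.57% with no limit, 3.62% at 500 genes, 35.1% with doublets removed, 4.71% without the top cell, 12.04% by mean CPM, 33.3% without antibody-high droplets and 2.62% with 0 UMIs of 5 B cell genes. With Momordicine-I it was 7.39%, and 14.3% at 5% mitochondrial UMIs, 4.48% by mean CPM and 4.28% with 0 UMIs of 5 B cell genes. Iglc3 with 0 Cd79a UMIs reversed to -0.11 under that last setting. What caused these shifts was not tested. Of 145 values of single genes other than Igkc, 123 stayed within their interval, 19 moved and 3 reversed, the Ighm pair and Iglc3 above. Igha without its top cell gave no value. No paired analysis was possible because each group is 1 library of pooled mice. Low counts limit Igha in both strata, and Ighg2b and Ighg2c in droplets with 2 or more Cd79a UMIs. The use of 1 library per group leaves mouse-to-mouse spread unknown.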

Other observations

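The mitochondrial limit removed 3 more antibody-high vehicle droplets and 0 with Momordicine-I. They had 3085, 5063 and 4652 UMIs, of which 30.8%, 28.1% and 13.2% came from the 10 genes, with 37.6%, 12.2% and 11.5% mitochondrial UMIs. The first had 784 UMIs of Ighm and 152 of Igkc. The second had 1034 of Ighg2c and 347 of Igkc, more Ighg2c than the 325 in all passing vehicle droplets, and the third had 577 of Igkc.

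Picked after their values were seen, 2 of the antibody-high droplets shared their leading variable segments. Igkv1-117 had 123 and 178 UMIs and Ighv1-76 had 46 and 50 UMIs in them, and these droplets also held the most Iglc1, 163 and 355 UMIs. Segments named from a 3′ kit do not show the joined sequence. A vehicle droplet in the proliferation-led T-like cluster, with 31882 UMIs, had 105 of Cd79a, 287 of Ighm, 150 of Iglc2 and 13 of Igkc. Another there, with 117493 UMIs, had 646 of Igkc, 72 of Ighg2c and 0 of Cd79a.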
